A study of Mus musculus with 8 samples.

Results

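The mitochondrial ribosomal protein genes of the mouse, whose symbols begin with Mrpl or Mrps, were followed through 3 cell populations sorted from the yolk sac at embryonic stage E11.5. They were taken as every row of the count table whose symbol was Mrpl or Mrps, a number and at most 1 further letter. This gave 77 of 24454 genes, 48 named Mrpl and 29 named Mrps. Every one of the 77 had reads in all 8 libraries and passed the filter on low counts, with 5 to 1062 reads per gene and library. Mrpl58 had no row of that name, and its older symbol Ict1 is described with the related genes.

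Mitochondria hold their own ribosome, the mitoribosome, which makes only the few respiratory chain proteins encoded by mitochondrial DNA. Its RNA comes from that DNA, whereas all its proteins are encoded in the nucleus, made in the cytoplasm and imported. Some of the proteins descend from bacterial ribosomal proteins and others are specific to mitochondria. Red cell precursors need mitochondria for iron-sulfur cluster and heme synthesis and clear them as they mature, while endothelial cells are known for relying largely on glycolysis.

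All cells came from C57BL/6 embryos of the genotype miR144-451+/GFP, in which 1 allele of the erythroid microRNA locus miR-144/451 carries green fluorescent protein (GFP), so no population was free of the modified allele. The endothelial population was VE-Cadherin positive and GFP negative, in 3 libraries of 25 cells (replicates 1 to 3). The erythroid population was VE-Cadherin negative and GFP positive, in 3 libraries of 25 cells (replicates 4 to 6). The double positive population carried both markers, in 2 libraries of 24 cells (replicates 7 and 8), and the labels call it Endothelial-Erythroid. The labels do not say whether the pools came from separate embryos, so p-values cover only pool-to-pool spread, part of which may be technical.

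Total counts ran from 3723128 to 7618444 per library. The endothelial adhesion gene Cdh5, which encodes VE-Cadherin, stood at 209 ± 32.0 CPM (mean ± SD, n = 3) in endothelial, 0 in erythroid and 51.0 ± 7.19 (n = 2) in double positive libraries. Here CPM are read counts per 1e6 of a library's effective size, its total times a trimmed mean (TMM) factor. The erythroid transcription factor gene Gata1 stood at 0, 288 ± 44.2 and 14.0 ± 1.19 CPM in the same order. Markers of visceral endoderm, the epithelium that lines the yolk sac, summed to 105320 and 102728 CPM over 17 genes in the double positive libraries, with none of the 17 at 0. The same sum was 53.0 to 162 CPM in endothelial and 10.8 to 26.0 CPM in erythroid libraries. All 14 macrophage markers in the table were at 0 in every erythroid library. They summed to 1699 to 4348 CPM in endothelial and to 304 and 291 CPM in double positive libraries. Of the 14, 8 were at 0 in double positive replicate 7 and none in replicate 8. In these bulk pools, fewer cells of a type and less RNA per cell cannot be told apart.

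The mitoribosomal protein genes took a smaller share of all reads in erythroid than in endothelial or double positive libraries. With globin genes and Rn45s set aside together, their share was larger in erythroid libraries. Their summed share of all counts was 0.508, 0.536 and 0.468% in endothelial, 0.262, 0.251 and 0.267% in erythroid pools and 0.540 and 0.555% in double positive pools. The erythroid libraries were all below the other two populations. Globin genes and the ribosomal RNA precursor Rn45s together filled 67.4 to 68.5% of the erythroid counts, against 18.15 to 21.3% of endothelial counts and 20.7 and 27.0% of double positive counts. With these rows set aside, the members' share was 0.620, 0.675 and 0.594% in endothelial, 0.830, 0.779 and 0.819% in erythroid pools and 0.681 and 0.760% in double positive pools. On that base the erythroid libraries were all above the endothelial and double positive libraries.

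**Figure D1:**
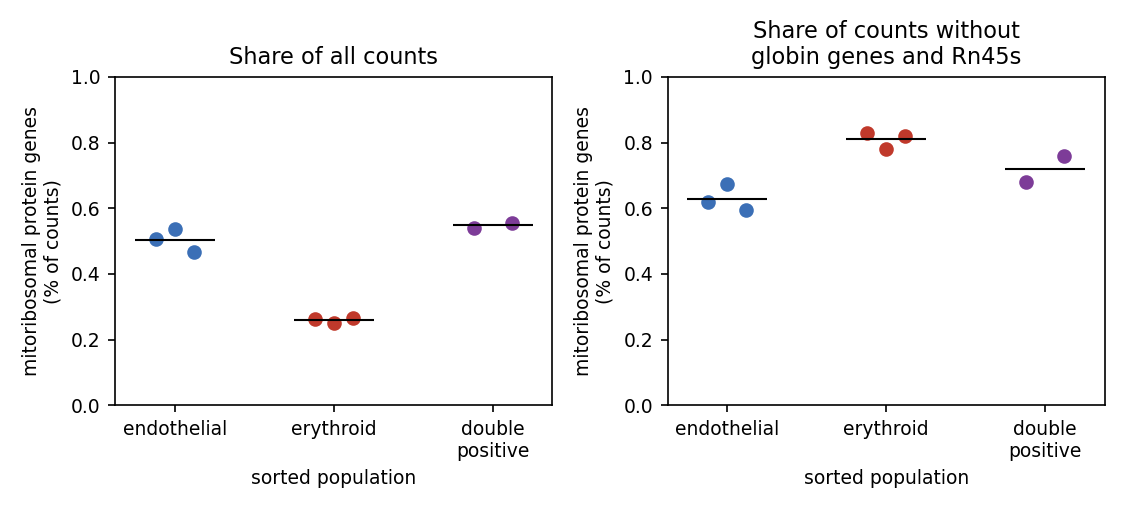
Summed share of counts (%) of the 77 mitoribosomal protein genes in each library, by sorted population. Left, of all counts. Right, of counts without globin genes and Rn45s. Points are libraries and lines are means. The 3 erythroid libraries lie lowest on the left (0.251 to 0.267%) and highest on the right (0.779 to 0.830%).

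The direction of the members' median between erythroid and endothelial cells depended on the scaling. With TMM factors the median log2 difference of the members, erythroid against endothelial, was 0.53, and that of all 12136 genes tested was -0.36. With the total of each library alone as its size, the members' median was -1.01 and that of all genes -1.90. The distance between the members and all genes was 0.89 under both scalings. A change of scaling shifts all genes by about the same amount, so this distance is nearly fixed and does not test the scaling. Differences below are given on the TMM scale unless another is named.

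Compared per length of transcript, the genes with the highest level were Mrpl20, Mrpl42, Mrps18c, Mrpl30 and Mrps21. Their mean levels over the populations were 211, 196, 150, 135 and 125 CPM per kilobase, where the median member had 40.6 and the lowest, Mrps5, had 4.12. Mrpl20, Mrpl30 and Mrps21 have bacterial relatives, as does Mrps18c, and Mrpl42 is specific to mitochondria. On this scale Mrpl20 stood at 165, 249.5 and 219.9 CPM per kilobase in endothelial, erythroid and double positive cells. Mrpl42 had 139.8, 241 and 207 CPM per kilobase in the same order. For both genes every erythroid library was above every endothelial library, and the erythroid and double positive libraries overlapped.

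By subunit, the 50 large subunit genes took 68.1 to 72.2% of the members' counts over the 8 libraries. Mrps18a and Mrps30 are counted here in the large subunit, where their proteins are found despite their names. Mrps36 is kept apart, because its protein is now assigned to the oxoglutarate dehydrogenase complex. The median coefficient of variation of the members was 17.6% in endothelial, 17.2% in erythroid and 11.1% in double positive libraries, against 24.8, 26.0 and 13.1% for genes tested with at least 10 CPM.

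The first comparison asks how vascular and red cell populations of the yolk sac differ. Between erythroid and endothelial cells, 26 of the 77 genes were higher in erythroid cells and 3 were lower on the TMM scale, whereas 0 were higher and 52 lower with library size alone. The genes with the largest rises were Mrpl14, Mrpl57, Mrps36 and Mrpl23, each 3.67-fold to 4.33-fold higher, and the falls were in Mrpl17, Mrps6 and Mrps27. The test was edgeR's quasi-likelihood test with Benjamini-Hochberg adjustment over all genes, at an adjusted p under 0.05. Of all genes tested, 14.4% were higher and 26.6% lower, where the members had 33.8% higher and 3.9% lower. Above 0 stood 64 of the 77 differences, at a median of 0.53.

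Mrpl14 (chr17:45686322-45698495 on GRCm38, plus strand) encodes a large subunit protein at the face where the subunits meet, and is bound by the assembly factor Malsu1. It had 26.4, 22.2 and 18.3 CPM in the endothelial libraries, 88.3, 97.7 and 104 in the erythroid and 86.8 and 102 in the double positive libraries. The endothelial libraries were all far below the others, and erythroid and double positive libraries overlapped. The gene was 4.33-fold higher in erythroid than in endothelial cells (log2 difference 2.11, SE 0.21, adjusted p = 8.6e-05) and 4.23-fold higher in double positive cells (2.08, SE 0.23, adjusted p = 0.00043). It shares 106 exon bases with Tmem63b on the opposite strand, and the strand setting of the counting is not given in the sources used here.

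Mrpl23 (chr7:142532686-142540747, plus strand) encodes a protein at the mouth of the tunnel through which the new chain leaves the large subunit. It had 29.0, 37.8 and 26.8 CPM in endothelial, 118, 97.1 and 128 in erythroid pools and 61.7 and 88.5 in double positive pools. The 3 populations did not overlap, with double positive cells in between. The rise in erythroid over endothelial cells was 3.67-fold (log2 1.87, SE 0.24, adjusted p = 0.000303), and the double positive difference from endothelial cells was 1.27 (SE 0.25, adjusted p = 0.0089), a call that ended without double positive replicate 8 (adjusted p = 0.11). The annotation lists 1 pseudogene copy named for Mrpl23, and how reads shared with it were counted is not given in the sources used here, so its level is uncertain.

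Mrpl57 (chr14:57826234-57829296, plus strand), a large subunit protein specific to mitochondria, had 21.2, 33.2 and 19.7 CPM in endothelial, 108, 108.5 and 79.2 in erythroid pools and 55.0 and 68.3 in double positive pools. The populations were again apart, with erythroid cells highest. It was 3.99-fold higher in erythroid than in endothelial cells (log2 2.00, SE 0.27, adjusted p = 0.00047). It was also higher in double positive than in endothelial cells (1.32, SE 0.29, adjusted p = 0.014), though not without double positive replicate 8 (adjusted p = 0.13). Between double positive and erythroid cells it did not pass (-0.68, SE 0.30, adjusted p = 0.097).

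Mrps36 (chr13:100735955-100744659, minus strand) had 14.3, 14.5 and 11.2 CPM in endothelial, 56.6, 49.5 and 43.7 in erythroid pools and 45.5 and 59.3 in double positive pools. Endothelial libraries were lowest, and the other two populations overlapped. The gene was 3.75-fold higher in erythroid cells (log2 1.91, SE 0.27, adjusted p = 0.00053) and 3.93-fold higher in double positive cells (1.97, SE 0.29, adjusted p = 0.0018) than in endothelial cells. The annotation names 3 pseudogene copies of it, which makes its level uncertain. When only library size was used, Mrpl14, Mrpl23, Mrpl57 and Mrps36 stood 0.57, 0.33, 0.45 and 0.36 higher on the log2 scale in erythroid than in endothelial cells and none of these passed, with adjusted p-values from 0.051 to 0.27.

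Mrpl18 (chr17:12911349-12916345, minus strand) encodes a protein of the central protuberance of the large subunit. By edgeR's test it was the 1 member higher in erythroid cells than in both other populations. DESeq2 gave 2 such members, limma-voom 4 and an unadjusted p under 0.05 gave 7. Mrpl18 had 52.1, 57.7 and 47.0 CPM in endothelial, 157, 151 and 112.5 in erythroid pools and 78.4 and 86.4 in double positive pools. The populations did not overlap and the erythroid libraries were highest. The log2 difference was 1.42 (SE 0.19, adjusted p = 0.00044) against endothelial cells, and that of double positive against erythroid cells was -0.77 (SE 0.22, adjusted p = 0.0203). They turned to -0.125 and 0.144 with library size alone. The second call ended without either double positive library (adjusted p = 0.15 without replicate 7 and 0.099 without replicate 8) and without erythroid replicate 4 or 5 (0.061 and 0.056). The gene shares 141 exon bases with Tcp1 on the opposite strand.

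**Figure D2:**
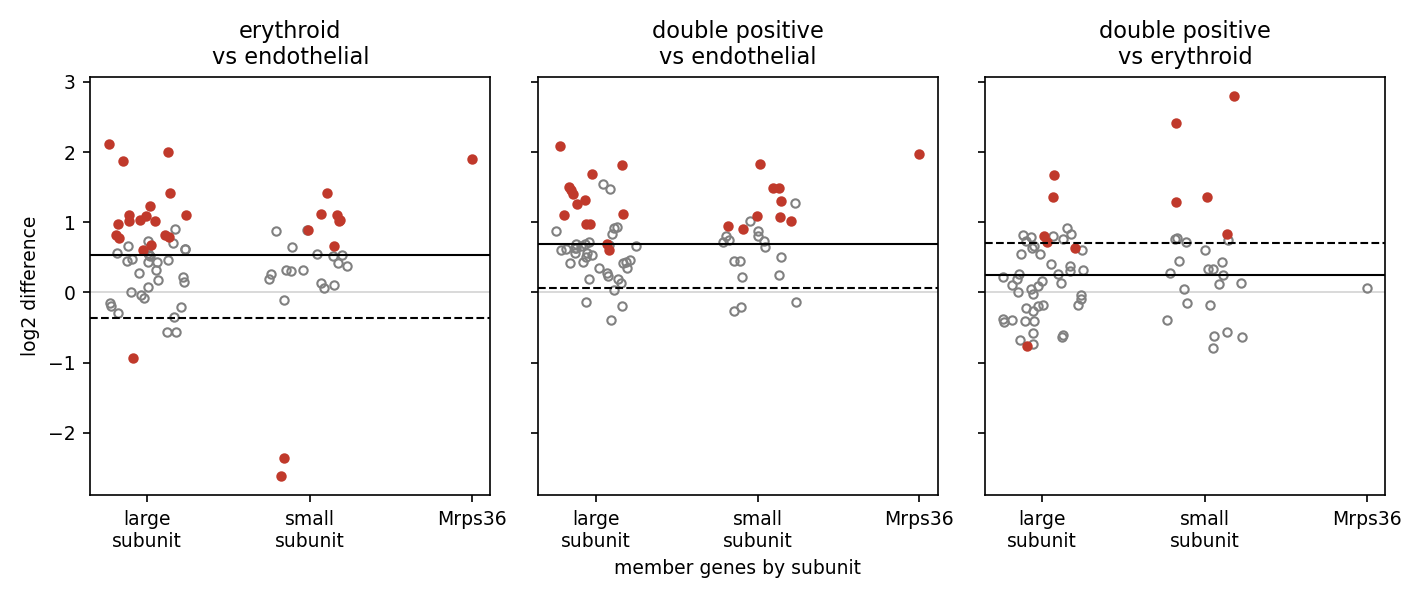
Log2 difference of each of the 77 genes in the 3 comparisons (TMM scale), by subunit, with Mrps36 apart. Filled red points passed at an adjusted p under 0.05 and open points did not. The solid line is the members' median (0.53, 0.69 and 0.24) and the dashed line the median of all genes tested (-0.36, 0.06 and 0.71). On library size alone, the members' medians were -1.01, 0.05 and 1.16.

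By role, Mrps18a and Mrps18b are counted as specific to mitochondria, although their proteins are related to a bacterial protein. Of the 30 large subunit genes with a bacterial relative, 12 were higher in erythroid than in endothelial cells and 1 was lower. Of the 20 large subunit genes specific to mitochondria, 6 were higher. In the small subunit, 7 of the 16 genes with a bacterial relative were higher and 1 was lower. Of the 10 small subunit genes specific to mitochondria, 0 were higher and 1 was lower by edgeR's test, where an unadjusted p under 0.05 gave 1 higher and both DESeq2 and limma-voom gave 0. Of all genes tested, 14.4% were higher and 26.6% lower, and differences between these groups were not tested. The medians of the 4 groups were 0.58, 0.55, 0.76 and 0.32. Scaled by library size alone, their medians were -0.97, -1.0, -0.78 and -1.22.

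Among the other genes that rose, Mrpl12 encodes the stalk protein that meets the translation factors and Mrps12 a protein of the decoding centre. Mrpl12 (chr11:120484613-120489065, plus strand) was at 53.4 ± 12.1 CPM in endothelial pools, 109 ± 12.6 in erythroid pools (n = 3 each) and 141 ± 9.30 in double positive libraries (n = 2). Mrps12 (chr7:28739641-28741820, minus strand) was at 30.1 ± 0.215, 61.2 ± 9.46 and 63.4 ± 12.4 CPM in the same order. Both were higher in erythroid than in endothelial cells, by 1.03 (SE 0.21, adjusted p = 0.0042) and 1.02 (SE 0.23, adjusted p = 0.0063) on the log2 scale, which turned to -0.52 for each with library size alone. Mrpl12 shares 200 exon bases with Gm16755 on the opposite strand.

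The genes that were high per length belonged to the same group. In erythroid against endothelial cells, the log2 differences were 0.60 for Mrpl20 (SE 0.17, adjusted p = 0.018), 0.79 for Mrpl42 (SE 0.19, adjusted p = 0.0084), 1.09 for Mrpl30 (SE 0.20, adjusted p = 0.00203) and 1.11 for Mrps21 (SE 0.25, adjusted p = 0.0071). Every erythroid library of these 4 genes was above every endothelial library. Without a call in 7 of the 16 alternatives, Mrpl20 was the least stable of them, and its highest adjusted p among those 7 was 0.091. In double positive against endothelial cells none of the 4 passed, with adjusted p-values of 0.15, 0.085, 0.13 and 0.102. Scaled by library size alone, the erythroid differences turned to -0.95 for Mrpl20, -0.75 for Mrpl42, -0.46 for Mrpl30 and -0.44 for Mrps21.

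The remaining rises between erythroid and endothelial cells were of similar size. They were in Mrpl13, Mrpl16, Mrpl28, Mrpl32, Mrpl34, Mrpl36, Mrpl37, Mrpl40, Mrpl51, Mrps7, Mrps14, Mrps18a, Mrps18c, Mrps24 and Mrps28, from 0.66 in Mrps7 to 1.42 in Mrps18c on the log2 scale. Mrpl36 shares exon sequence with the respiratory chain gene Ndufs6 on the opposite strand. Of all 77 genes, 29 overlap exons of another gene. Among the 48 that do not, 18 were higher and 1 was lower in erythroid cells, where 14.4% of all genes tested were higher and 26.6% lower.

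The falls stood out from the rest of the family in size or in spread. Mrpl17 (chr7:105803206-105811099, minus strand), a protein near the exit of the peptide tunnel, was the most evenly measured, with 140, 163 and 164 CPM in endothelial, 82.0, 80.3 and 82.8 in erythroid pools and 129 and 157 in double positive pools. The erythroid libraries were all lower and close together, while endothelial and double positive libraries overlapped. Mrpl17 was 1.91-fold lower in erythroid than in endothelial cells (log2 -0.93, SE 0.16, adjusted p = 0.0014) and 1.75-fold higher in double positive than in erythroid cells (0.80, SE 0.17, adjusted p = 0.0057). The first call held in all 16 alternatives, library size alone included, and the second ended without double positive replicate 8 (adjusted p = 0.058).

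Mrps27 (chr13:99344786-99415562, plus strand) encodes a small subunit protein specific to mitochondria that belongs to the pentatricopeptide repeat family of RNA-binding proteins. It shares 417 exon bases with 6430562O15Rik on the opposite strand. It had 34.4, 30.6 and 31.5 CPM in endothelial, 1.63, 1.59 and 12.7 in erythroid pools and 22.0 and 33.6 in double positive pools. These rest on 7, 5 and 39 reads in the erythroid libraries, where replicate 6 was well above the other pools. The gene was 6.14-fold lower in erythroid than in endothelial cells (log2 -2.62, SE 0.75, adjusted p = 0.021) and 5.31-fold higher in double positive than in erythroid cells (2.41, SE 0.80, adjusted p = 0.038). Without erythroid replicate 6 these log2 differences were -4.34 (adjusted p = 0.00028) and 4.10 (adjusted p = 0.00051), and with limma-voom -3.28 and 3.03. Without endothelial replicate 1 the first difference was -2.58 with an adjusted p of 0.052, and the second call ended in 8 of the 16 alternatives, with adjusted p-values of 0.058 to 0.17 there.

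Mrps6 (chr16:92058270-92112227, plus strand), a small subunit protein with a bacterial relative, had 41.9, 38.5 and 80.5 CPM in endothelial, 20.0, 1.90 and 8.81 in erythroid pools and 70.5 and 75.4 in double positive pools. Erythroid libraries were lowest and differed among themselves, with 86, 6 and 27 reads. Mrps6 was 5.12-fold lower in erythroid than in endothelial cells (log2 -2.36, SE 0.65, adjusted p = 0.018) and 6.97-fold higher in double positive than in erythroid cells (2.80, SE 0.70, adjusted p = 0.012). Without erythroid replicate 4 these log2 differences were -3.37 and 3.80. The first call ended without endothelial replicate 3 (adjusted p = 0.064) and without erythroid replicate 6 (adjusted p = 0.0502), and the second held in all 16 alternatives. The annotation places 305 exon bases of Gm49711 and 159 of Slc5a3, a myo-inositol transporter gene, on the same strand within Mrps6 exons. Slc5a3 was at 27.7 ± 3.37 CPM in endothelial, 0 in every erythroid and 12.7 ± 1.69 in double positive libraries, and its part in the Mrps6 values was not tested.

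The promoters of Mrps27 and Mrps6 are shown, the genes with larger falls in erythroid cells than Mrpl17. They are given on GRCm38.p6 from RefSeq, 5′ to 3′ along the gene, from 250 bases before the start to 50 after. Capitals mark exact matches on either strand to letters of known binding motifs. They are CCGGAAG for the ETS factors such as GABPA, AGATGGCG for YY1, GCATGCGC for the core of the NRF1 site and CACGTG for the E-box. None of these strings contains another.
Mrps27 (chr13:99344536-99344835, plus strand): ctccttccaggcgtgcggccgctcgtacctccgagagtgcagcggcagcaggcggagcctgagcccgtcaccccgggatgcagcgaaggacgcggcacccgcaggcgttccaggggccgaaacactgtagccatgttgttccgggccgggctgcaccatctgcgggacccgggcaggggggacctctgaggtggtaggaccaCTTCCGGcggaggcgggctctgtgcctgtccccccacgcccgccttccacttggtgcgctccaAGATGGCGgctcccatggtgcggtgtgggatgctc
Mrps6 (chr16:92058086-92058385, plus strand): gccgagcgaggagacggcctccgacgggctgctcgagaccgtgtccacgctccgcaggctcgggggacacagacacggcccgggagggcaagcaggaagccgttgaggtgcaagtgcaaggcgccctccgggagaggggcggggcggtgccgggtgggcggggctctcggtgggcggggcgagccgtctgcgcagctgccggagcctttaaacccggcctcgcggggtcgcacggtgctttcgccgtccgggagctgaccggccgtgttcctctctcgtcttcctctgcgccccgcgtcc
The Mrps27 window holds an ETS and a YY1 match, and no match to these letters was found in the Mrps6 window. Mrpl17, whose promoter is not shown, is among the genes with the ETS and with the NRF1 letters. Over the 74 RefSeq promoters that matched 68 of the 77 genes, 33.8% held the ETS letters, against 8.86% of all 32851 promoters in the table and 11.6% of the 21263 of protein-coding genes. The YY1 letters were in 10.8% of the members' promoters, against 1.95% of all and 2.41% of protein-coding ones. The NRF1 letters were also in 10.8%, against 2.71% and 3.52%, and the E-box in 9.46%, against 7.15% and 7.84%. A match says only that the letters are present in the window.

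The second comparison sets double positive against endothelial cells. In double positive cells 24 of the 77 genes were higher than in endothelial cells, against 14.6% of all genes tested, which is 31.2% of the members. None was lower, where 6.92% of all genes were, and an unadjusted p under 0.05, DESeq2 and limma-voom likewise gave 0 lower. The median difference was 0.69, with 71 of 77 above 0, and that of all genes was 0.06. The genes with the smallest adjusted p were Mrpl14, Mrps18a, Mrpl15, Mrps36 and Mrps28. The number of genes rested on having both pools, since 12 were higher without double positive replicate 7 and 7 without replicate 8, and 7 were higher and 1 lower with library size alone. Of the genes described singly, Mrpl23, Mrpl27, Mrpl57, Mrps12, Mrps17, Mrps18b and Mrps31 also stayed above 0 without passing on that scale. The endothelial libraries of this comparison are those of the first.

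Mrps28 (chr3:8802146-8923918, minus strand) encodes a small subunit protein with a bacterial relative. It had 39.7, 42.0 and 44.1 CPM in endothelial, 74.1, 89.2 and 69.5 in erythroid pools and 98.8 and 137 in double positive pools, with no overlap between populations. It was 2.81-fold higher in double positive than in endothelial cells (log2 1.49, SE 0.22, adjusted p = 0.0021) and 1.85-fold higher in erythroid cells (0.89, SE 0.20, adjusted p = 0.0072), which turned to -0.66 with library size alone. Mrpl12 was 2.64-fold higher in double positive than in endothelial cells (1.40, SE 0.23, adjusted p = 0.0035) and Mrps12 was 2.11-fold higher (1.08, SE 0.25, adjusted p = 0.016), a call that ended without replicate 8 (adjusted p = 0.199). The other rises were in Mrpl16, Mrpl23, Mrpl27, Mrpl34, Mrpl36, Mrpl40, Mrpl49, Mrpl51, Mrpl54, Mrpl57, Mrps7, Mrps14, Mrps17, Mrps18b, Mrps22, Mrps24 and Mrps31, from 0.61 in Mrpl51 to 1.83 in Mrps31 on the log2 scale.

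By role, 8 of the 30 large subunit genes with a bacterial relative and 6 of the 20 specific to mitochondria were higher in double positive than in endothelial cells. In the small subunit 6 of 16 with a bacterial relative and 3 of 10 specific to mitochondria were higher. The higher genes counted as specific to mitochondria include Mrps18a and Mrps18b. Of all genes tested, 14.6% were higher and 6.92% lower, and differences between the groups were not tested. The medians of these groups were 0.64, 0.65, 0.77 and 0.95. On the scale of library size alone, 3, 2, 1 and 0 genes of these groups were higher and the medians were 0.0073, 0.017, 0.12 and 0.30. Among the 48 genes without exon overlap, 16 were higher and 0 lower, a count of 0 that an unadjusted p, DESeq2 and limma-voom also gave over all 77 genes.

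In the third comparison, double positive against erythroid cells, a smaller share of these genes was higher than of all genes. Of the 77, 10 were higher in double positive cells (13%) and 1, Mrpl18, was lower (1.3%), where 31.5% of all genes tested were higher and 10.6% lower. The members' median was 0.24 and that of all genes 0.71. Fewer genes had reads in erythroid than in double positive libraries, whereas every member had reads in every library. The distance between the medians depended on which genes were tested. It was -0.47 here, -0.79 without a filter on low counts and -0.30 at a minimum count of 50. With library size alone, 55 members were higher and 0 lower. The medians were then 1.16 for the members and 1.61 for all genes, a distance that a change of scaling leaves nearly fixed. The count of 10 was 4 without double positive replicate 7, 3 without replicate 8, 6 without erythroid replicate 4 and 6 without endothelial replicate 1, and DESeq2 gave 18. The 10 genes were Mrpl15, Mrpl17, Mrpl27, Mrpl40, Mrps6, Mrps17, Mrps18a, Mrps18b, Mrps27 and Mrps31.

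Of these, 7 were higher in double positive cells than in both other populations, 9.09% of the members and close to the 9.33% of all genes tested that met the same condition. They were Mrpl15, Mrpl27, Mrpl40, Mrps17, Mrps18a, Mrps18b and Mrps31. None was lower than in both, a condition that 1.6% of all genes met and that DESeq2, limma-voom and an unadjusted p under 0.05 also gave 0 members for. Both comparisons share the double positive libraries, in which the visceral endoderm markers given above were high, and the part of these markers in the values was not tested.

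Mrpl15 (chr1:4773206-4785739, minus strand), a large subunit protein with a bacterial relative, had 43.2, 30.1 and 48.3 CPM in endothelial, 60.4, 50.1 and 56.7 in erythroid pools and 141 and 144 in double positive pools. The double positive pools were close together and far above all others. The gene was 3.51-fold higher than in endothelial cells (log2 1.81, SE 0.24, adjusted p = 0.0011) and 2.56-fold higher than in erythroid cells (1.35, SE 0.24, adjusted p = 0.0022), and both calls held in all 16 alternatives.

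Mrpl27 (chr11:94653767-94660089, plus strand) encodes a protein that lies near the peptidyl transferase centre in its bacterial relative. It had 48.7, 45.6 and 44.6 CPM in endothelial, 38.7, 23.8 and 31.3 in erythroid pools and 91.8 and 108 in double positive pools. Erythroid libraries were lowest here and double positive libraries highest. The difference was 1.67 on the log2 scale against erythroid cells (SE 0.26, adjusted p = 0.0011), held in all 16 alternatives, and 1.11 against endothelial cells (SE 0.25, adjusted p = 0.016). The second call ended without double positive replicate 7 (adjusted p = 0.074) or 8 (0.17). Mrpl27 shares 75 exon bases with Eme1 on the opposite strand.

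Mrps31 (chr8:22411361-22429665, plus strand) and Mrps17 (chr5:129715497-129722556, plus strand) belong to the small subunit. Mrps31 had 16.1, 13.5 and 13.6 CPM in endothelial, 25.6, 9.84 and 27.1 in erythroid pools and 62.1 and 40.3 in double positive pools. Mrps17 had 49.2, 83.6 and 49.0, then 57.8, 86.6 and 62.3, then 118 and 128 CPM. In both genes the double positive libraries were highest and the other two populations overlapped. The differences from erythroid cells were close to the threshold, 1.29 for Mrps31 (SE 0.46, adjusted p = 0.048) and 0.83 for Mrps17 (SE 0.29, adjusted p = 0.048), and their calls ended in 10 and 7 of the 16 alternatives, leaving out either double positive library among them. Against endothelial cells the differences were 1.83 (SE 0.46, adjusted p = 0.023) and 1.02 (SE 0.29, adjusted p = 0.038), which ended in 6 and 7 alternatives, again including both double positive libraries.

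**Figure D3:**
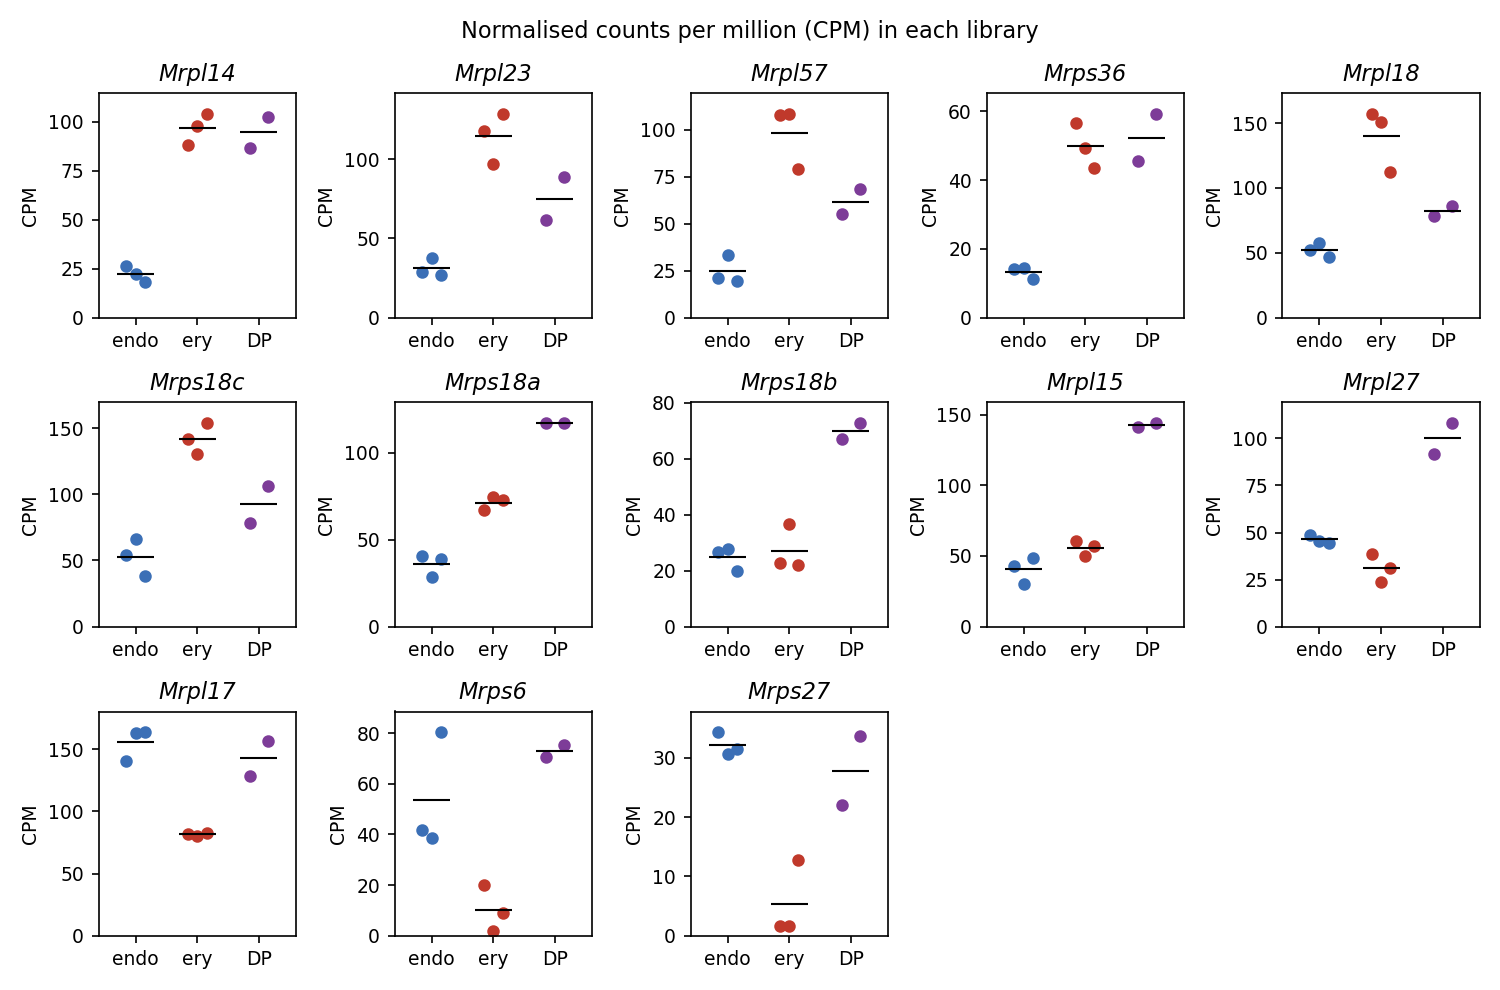
Normalised counts (CPM, TMM scale) of 13 genes in each library. Points are libraries, lines are means, and endo, ery and DP are endothelial, erythroid and double positive. Mrpl14 to Mrps18c are lowest in endothelial libraries, Mrps18a to Mrpl27 are highest in double positive libraries, and Mrpl17, Mrps6 and Mrps27 are lowest in erythroid libraries.

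The 3 genes named Mrps18 encode paralogous proteins related to 1 bacterial protein, and they differed in pattern. Mrps18c is the small subunit member at the position of that bacterial protein, Mrps18b is another small subunit protein, and the Mrps18a protein sits in the large subunit. Mrps18c (chr5:100798627-100804471, plus strand) had 54.1, 66.5 and 38.3 CPM in endothelial, 142, 131 and 154 in erythroid pools and 78.0 and 107 in double positive pools, highest in erythroid cells with no overlap. It was 2.68-fold higher in erythroid than in endothelial cells (log2 1.42, SE 0.24, adjusted p = 0.0014), and the double positive difference from erythroid cells was -0.62 (SE 0.26, adjusted p = 0.088). Scaled by library size alone, they became -0.122 and 0.277. Mrps18c shares 174 exon bases with Gm43511 on the same strand.

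Mrps18a (chr17:46110986-46128910, plus strand) had 40.9, 28.5 and 39.1 CPM in endothelial, 66.9, 74.6 and 72.7 in erythroid pools and 117 and 117 in double positive pools. The populations were all apart, in that order. It was 1.97-fold higher in erythroid cells (log2 0.98, SE 0.20, adjusted p = 0.0042) and 3.24-fold higher in double positive cells (1.69, SE 0.22, adjusted p = 0.00103) than in endothelial cells, and with library size alone the erythroid difference turned to -0.57. The double positive difference from erythroid cells was 0.71 (SE 0.22, adjusted p = 0.029), a call that ended without double positive replicate 7 (adjusted p = 0.14) or 8 (0.13) and without erythroid replicate 4 (0.058) or 6 (0.051).

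Mrps18b (chr17:35910379-35916389, minus strand) had 26.7, 27.7 and 19.9 CPM in endothelial, 22.8, 36.8 and 21.9 in erythroid pools and 66.9 and 72.8 in double positive pools. Endothelial and erythroid libraries overlapped and double positive libraries were far above both. It was 2.82-fold higher than in endothelial cells (log2 1.49, SE 0.32, adjusted p = 0.012) and 2.57-fold higher than in erythroid cells (1.36, SE 0.32, adjusted p = 0.0095). Both calls ended without double positive replicate 7 (adjusted p = 0.075 and 0.053) or replicate 8 (0.11 and 0.07). Mrps18b shares 638 exon bases with the antisense gene Gm16279. Erythroid and endothelial cells differed by 0.13 (SE 0.30, adjusted p = 0.78).

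The promoters of the Mrps18 genes are shown because the 3 paralogs differed across the populations, with the same build, window, direction and capitals as above.
Mrps18a (chr17:46110754-46111053, plus strand): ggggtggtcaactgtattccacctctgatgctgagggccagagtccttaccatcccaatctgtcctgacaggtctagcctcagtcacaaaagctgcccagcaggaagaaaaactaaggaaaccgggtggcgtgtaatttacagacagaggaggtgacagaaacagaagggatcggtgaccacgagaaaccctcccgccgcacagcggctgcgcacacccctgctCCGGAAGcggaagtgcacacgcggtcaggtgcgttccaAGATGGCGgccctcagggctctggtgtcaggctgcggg
Mrps18b (chr17:35916391-35916690, minus strand): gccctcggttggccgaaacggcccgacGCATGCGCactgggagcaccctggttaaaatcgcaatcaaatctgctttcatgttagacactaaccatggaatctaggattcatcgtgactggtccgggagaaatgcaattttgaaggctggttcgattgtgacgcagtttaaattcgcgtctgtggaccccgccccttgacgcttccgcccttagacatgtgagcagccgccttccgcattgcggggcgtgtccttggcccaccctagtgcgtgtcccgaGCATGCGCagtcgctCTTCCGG
Mrps18c (chr5:100798509-100798808, plus strand): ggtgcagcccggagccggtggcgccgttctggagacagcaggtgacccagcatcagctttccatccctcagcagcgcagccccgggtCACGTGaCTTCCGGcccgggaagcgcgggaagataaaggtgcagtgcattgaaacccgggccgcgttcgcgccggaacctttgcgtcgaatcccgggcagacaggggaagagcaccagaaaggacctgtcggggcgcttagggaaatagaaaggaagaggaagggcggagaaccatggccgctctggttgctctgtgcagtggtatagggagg
Each of the 3 windows holds the ETS letters, on the gene's strand in Mrps18a and on the other in Mrps18b and Mrps18c. The Mrps18a window also holds the YY1 letters downstream of them, that of Mrps18b holds the NRF1 letters at 2 places and that of Mrps18c holds an E-box beside the ETS match.

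Mrps30 (chr13:118378381-118387252, minus strand), the other large subunit gene with a small subunit name, did not pass in any comparison by edgeR's test on the TMM scale. It had 26.0 ± 5.62 (endothelial), 42.6 ± 3.98 (erythroid) and 41.9 ± 3.12 CPM (double positive), with differences of 0.71 (adjusted p = 0.058), 0.69 (adjusted p = 0.13) and -0.02 (adjusted p = 0.97) in the order of the comparisons. The first passed with limma-voom (adjusted p = 0.048), at a minimum count of 50 (0.047) and without endothelial replicate 1 (0.043), and turned to -0.84 with library size alone (adjusted p = 0.028). Mrps30 shares 601 exon bases with B430218F22Rik on the opposite strand. Mrpl17, Mrps6 and Mrps27 did not pass between double positive and endothelial cells, at -0.13 (SE 0.17), 0.45 (SE 0.66) and -0.21 (SE 0.77).

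Other genes that build or serve the mitoribosome were read from fixed lists. Of 6 mitoribosomal proteins with other names in the table, 3 were higher in erythroid and 4 in double positive than in endothelial cells. All genes tested had 14.4% and 14.6% higher there. In double positive against erythroid cells 1 of the 6 was higher and 2 were lower, where 31.5% of all genes were higher and 10.6% lower. The small subunit gene Aurkaip1 was at 47.2 ± 12.4 (endothelial), 138 ± 16.4 (erythroid) and 123 ± 29.3 CPM (double positive), and the large subunit gene Gadd45gip1 at 25.9 ± 3.82, 86.0 ± 5.92 and 47.4 ± 1.87. Both were higher in erythroid than in endothelial cells, by 1.55 (SE 0.24, adjusted p = 0.00092) and 1.73 (SE 0.21, adjusted p = 0.00026) on the log2 scale. When only library size was used, 4 of the 6 were lower and 0 higher in erythroid than in endothelial cells. Chchd1, of the small subunit, was highest in double positive libraries at 76.0 ± 0.37 CPM, against 28.4 ± 2.72 in endothelial and 50.8 ± 5.74 in erythroid libraries. By edgeR's test its double positive difference from endothelial cells passed (log2 1.42, SE 0.23, adjusted p = 0.0034). That from erythroid cells did not (0.58, SE 0.23, adjusted p = 0.074). Ict1, the release factor family member built into the large subunit, was at 49.6 ± 7.91, 46.0 ± 14.2 and 59.9 ± 19.9 CPM and passed in no comparison by edgeR's test.

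Among 27 genes for assembling the mitoribosome and modifying its rRNA, erythroid cells had 2 higher and 1 lower than endothelial cells, where 14.4% of all genes tested were higher and 26.6% lower, and 1 was higher in double positive cells than in each other population. The rRNA methyltransferase gene Tfb1m was at 6.93 ± 2.47 CPM in the endothelial and 21.6 ± 9.24 in the erythroid population (log2 1.64, SE 0.51, adjusted p = 0.0303), and the RNA helicase gene Dhx30 at 40.1 ± 6.17 and 13.2 ± 8.0 (-1.59, SE 0.45, adjusted p = 0.0198). Of 16 translation factor genes, 1 was higher in each comparison. Over all genes tested, 14.4% were higher in erythroid than in endothelial cells. In double positive cells 14.6% were higher than in endothelial and 31.5% than in erythroid cells. On library size alone, 12 of the 27 and 9 of the 16 were lower in erythroid than in endothelial cells and 0 higher. Lrpprc, which stabilises mitochondrial mRNAs, was at 29.3 ± 7.07 (endothelial), 75.0 ± 5.92 (erythroid) and 91.4 ± 20.0 CPM (double positive), higher in erythroid than in endothelial cells by 1.35 (SE 0.24, adjusted p = 0.0021). Its partner Slirp was at 45.9 ± 15, 47.2 ± 15.7 and 99.9 ± 13.2 CPM and was higher in double positive than in erythroid cells by 1.08 (SE 0.36, adjusted p = 0.039).

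Of 20 genes for charging mitochondrial tRNAs, 3 were higher in erythroid and 1 in double positive than in endothelial cells, and in double positive against erythroid cells 1 was higher and 1 lower. Over the full set of 12136 genes, erythroid against endothelial cells gave 14.4% higher and 26.6% lower. Double positive cells gave 14.6% higher against endothelial cells, and 31.5% higher and 10.6% lower against erythroid cells. Scaled by library size alone, erythroid against endothelial cells had 8 of the 20 lower and 0 higher. Double positive against erythroid cells then had 5 of the 20 higher and 0 lower. Lars2, the leucyl-tRNA synthetase, was highest in double positive libraries at 850 ± 252 CPM, against 307 ± 46.8 in endothelial and 418 ± 12.5 in erythroid libraries. Gatc, a subunit of the amidotransferase that completes mitochondrial glutaminyl-tRNA, was at 11.8 ± 3.68 CPM in endothelial, 39.5 ± 12.5 in erythroid and 9.48 ± 4.75 in double positive libraries, and was lower in double positive than in erythroid cells by edgeR's test (log2 -2.06, SE 0.53, adjusted p = 0.014). Of 10 genes for mitochondrial DNA maintenance and transcription, 0 passed between erythroid and endothelial cells by edgeR's test, where DESeq2 and limma-voom each gave 1 lower and an unadjusted p under 0.05 gave 0. Of the 10, 5 were lower with library size alone. Polg, the catalytic subunit of the mitochondrial DNA polymerase, was at 3.98 ± 3.77 CPM in erythroid and 32.6 ± 1.17 in double positive libraries (log2 3.03, SE 0.99, adjusted p = 0.037).

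Among 14 import, chaperone and matrix content genes, 7 were higher in double positive than in endothelial cells, erythroid cells had 4 higher and 2 lower than endothelial cells, and double positive against erythroid cells had 5 higher and 1 lower. With library size alone these counts were 2 higher and 2 lower, 0 higher and 12 lower, and 10 higher and 0 lower. On the TMM scale, the shares of all genes tested that were higher were 14.6, 14.4 and 31.5% in these comparisons. The shares that were lower were 6.92, 26.6 and 10.6%. The import receptor gene Tomm20 was at 49.8 ± 6.80 CPM in endothelial, 51.6 ± 8.84 in erythroid and 248 ± 14.6 in double positive libraries. Hspe1, the matrix co-chaperonin, was at 97.3 ± 17.1, 66.2 ± 11.3 and 329 ± 58.7 CPM in the same order. Both were higher in double positive cells than in erythroid cells, by 2.26 (SE 0.21, adjusted p = 7.4e-05) and 2.31 (SE 0.22, adjusted p = 9.5e-05). Vdac1, an outer membrane channel, was lower in erythroid than in endothelial cells, at 72.6 ± 2.59 against 161 ± 31.5 CPM (log2 -1.15, SE 0.17, adjusted p = 0.00076).

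Regulators known to act on nuclear genes for mitochondria were lower in double positive cells in 3 of 8 cases against either other population, where 6.92% of all genes were lower against endothelial and 10.6% against erythroid cells, and 1 of the 8 was higher than in erythroid cells. With library size alone 3 were lower than in endothelial cells, and 2 were higher and 2 lower than in erythroid cells. Nrf1 was at 28.9 ± 8.28 CPM in endothelial, 56.2 ± 13.4 in erythroid and 11.1 ± 0.221 in double positive libraries, with a difference of -2.34 between double positive and erythroid cells (SE 0.39, adjusted p = 0.0017). Myc, a transcription factor that acts on ribosome synthesis among other targets, was at 55.8 ± 2.56, 83.3 ± 23.6 and 12.6 ± 1.82 CPM in the same order. Esrra, an orphan nuclear receptor that acts on genes of oxidative metabolism, was the higher one, at 3.14 ± 0.695 CPM in double positive and 0 in every erythroid library (adjusted p = 0.017), with 1.36 ± 0.953 CPM in endothelial libraries.

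The wider families that the mitoribosome resembles or serves were counted in the same way. Of 76 cytoplasmic ribosomal protein genes tested, erythroid cells had 71 higher and 1 lower than endothelial cells, at a median of 1.13, but 3 higher and 43 lower at a median of -0.41 with library size alone. Of 78 nuclear-encoded respiratory chain genes 56 were higher and 0 lower, at a median of 0.81, but 2 higher and 59 lower at -0.73 with library size alone (of the 0 lower, an unadjusted p gave 1 and DESeq2 and limma-voom gave 0). In double positive against endothelial cells the respiratory chain genes had 70 higher at a median of 1.24 and the cytoplasmic ribosomal protein genes 47 at 0.59. Scaled by library size alone, these were 40 higher and 1 lower at 0.60, and 2 higher and 2 lower at -0.06. In double positive against erythroid cells the respiratory chain genes had 31 higher and 3 lower at a median of 0.35. The cytoplasmic ribosomal protein genes had 2 higher and 45 lower at -0.58. With library size alone, these were 72 higher and 1 lower, and 28 higher and 3 lower. Whether the members differ from these families beyond these counts was not tested.

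**Figure D4:**
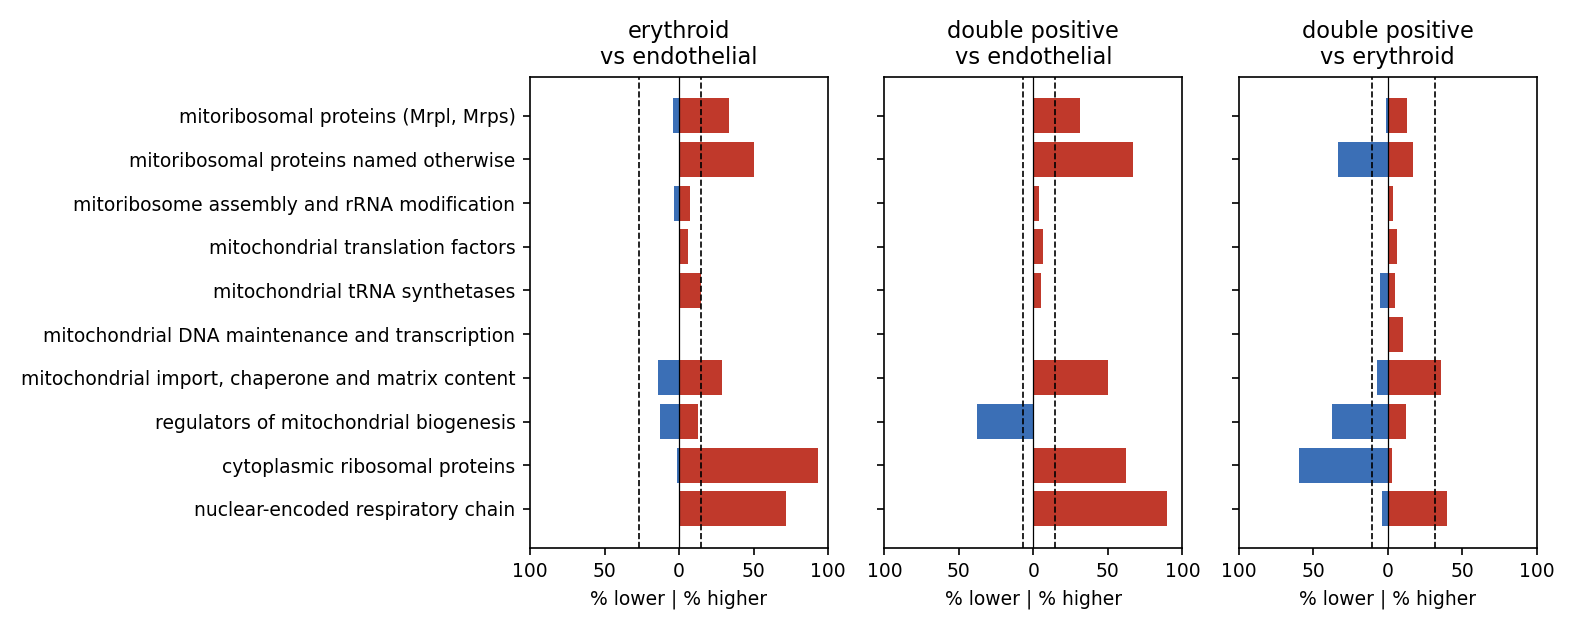
Percent of tested genes in each list that were higher (right of 0, red) or lower (left of 0, blue) at an adjusted p under 0.05 in the 3 comparisons, on the TMM scale. Dashed lines give the percent of all genes tested, 14.4 higher and 26.6 lower in the first panel, 14.6 and 6.92 in the second and 31.5 and 10.6 in the third. Cytoplasmic ribosomal protein and respiratory chain genes reach the largest shares in the first panel, where most of their calls are lower with library size alone.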

How the data were processed

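Polyadenylated RNA of 8 pools of sorted cells was copied and amplified by Smart-seq2 with 14 cycles of PCR and no molecular identifiers, per the labels' protocols. The values are raw read counts, deposited by the authors unscaled, 1 row per gene symbol. The submitters' processing notes name FastQC, HTSeq and the build mm10. The sources used here do not state their versions, the aligner, the annotation or the strand setting.

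The software was edgeR 4.0.16 (under R 4.3.3), with DESeq2 1.42.0 and limma 3.58.1 for alternatives. Tables and figures used pandas 2.3.3 and matplotlib 3.10.9 (under python 3.11.15). Genes passing filterByExpr at a minimum count of 10 (12136) were scaled by TMM and tested by a robust quasi-likelihood fit over all 8 libraries, with 1 mean per population. Calls were made two-sided at a Benjamini-Hochberg adjusted p under 0.05. A fold is 2 to the size of the fitted log2 difference. The fit was also run on simulated counts, in which the populations shared the same levels except for a small set of raised genes. That simulation held no broad shift in composition, so it cannot test the scaling, and no result from it is given here. The alternatives were DESeq2, limma-voom, other scalings and filters, only the populations compared, and each library left out. Lengths are the median over protein-coding transcripts in GENCODE on GRCm38, and positions are from there. Intervals and p-values do not account for PCR duplicates.

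The members, roles and gene lists were chosen with earlier results of these data known. Named in full were, per comparison and direction, the 5 genes with the smallest adjusted p, up to 5 above both other populations, the 5 highest per length, and Mrps18a, Mrps18b, Mrps18c, Mrps30, Mrps36, Mrps6, Mrpl12, Mrps12 and Mrpl58. In each list up to 3 genes with the smallest adjusted p were named. The motif letters planned for NRF1 and YY1 were shortened to a core.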

Additional observations from a re-analysis of the deposited data

How the results depend on the processing

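No paired analysis was possible because the replicate numbers in the labels are unique to a library, so no number is shared between populations. On library size alone, members higher and lower numbered 0 and 52 in erythroid against endothelial cells, 7 and 1 in double positive against endothelial cells, and 55 and 0 in double positive against erythroid cells. The joint share of globin genes and Rn45s differs between the populations, and this setting has no factor for composition. The median of members relative to all genes moved from 0.89, 0.63 and -0.47 to 0.76, 0.54 and -0.79 without a filter on low counts, and in double positive against erythroid cells to -0.30 at a minimum count of 50, -0.31 with only the populations compared, -0.41 without globin genes and Rn45s and -0.67 with limma-voom. It was 0.81 in erythroid against endothelial cells with only those populations and 0.50 in double positive against endothelial cells with limma-voom. Its sign was the same in every setting, though settings that change only the scaling could hardly move it. The cause of these shifts was not tested. DESeq2 gave 5 members lower in erythroid than in endothelial cells. For double positive against erythroid cells, 18 were higher with DESeq2, 17 with limma-voom and 16 with relative log expression (RLE) factors, and 2, 4, 2, 4 and 3 were lower with DESeq2, limma-voom, globin genes and Rn45s removed, a minimum count of 50 and only the populations compared.

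Leaving out each library in turn gave 22 to 27 members higher and 2 to 4 lower in erythroid against endothelial cells, 7 to 26 higher and 0 to 0 lower in double positive against endothelial cells, and 3 to 11 higher and 0 to 2 lower in double positive against erythroid cells. The relative medians ran from 0.79 to 0.99, from 0.59 to 0.80 and from -0.56 to -0.32. Pools of few cells, 2 of them double positive, limit the precision.

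Of 40 called differences of singly described genes, 10 held in all 16 settings. All 40 held with limma-voom, 39 with DESeq2 and 38 with RLE factors, 30 without double positive replicate 7 and 25 without replicate 8. On library size alone 18 held, 11 lost the call and 11 turned. Turned in erythroid against endothelial cells were Mrpl18 (-0.125), Mrps18a (-0.57), Mrps28 (-0.66), Mrpl20 (-0.95), Mrpl42 (-0.75), Mrps18c (-0.122), Mrpl30 (-0.46), Mrps21 (-0.44), Mrpl12 (-0.52) and Mrps12 (-0.52), and in double positive against erythroid cells Mrpl18 (0.144). Among differences that had not passed, library size alone turned Mrps18b (-1.41) and Mrps30 (-0.84) in erythroid against endothelial cells, Mrps6 (-0.19) in double positive against endothelial cells, and Mrps18c (0.28) and Mrps30 (0.89) in double positive against erythroid cells. Differences near 0 also changed sign. Mrps18b in erythroid against endothelial cells was -0.053 with DESeq2, -0.052 with RLE factors, -0.012 without globin genes and Rn45s and -0.023 with only the populations compared, and ran from -0.19 to 0.23 when each library was left out. Mrps30 in double positive against erythroid cells was 0.031 with DESeq2 and with RLE factors. When each library was left out of that comparison, Mrps30 ran from -0.093 to 0.082, Mrps36 from -0.106 to 0.254 and Mrps12 from -0.130 to 0.247.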
